A study of Mus musculus with 2 samples.

Results

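Exonic DNase I hypersensitive sites away from promoters numbered 847 of 26012 shared sites in the left cerebral cortex of newborn mice. A DNase I hypersensitive site (DHS) is a stretch of chromatin that the enzyme DNase I cuts more often than its surroundings. Calls that overlapped were merged, and a merged stretch counted as a shared DHS when the stricter peak list of each of the 2 libraries contributed to it. The 847 were chosen by position alone: the centre lay in an exon of a protein-coding gene and more than 1 kb from every transcription start site (TSS) of a protein-coding or long non-coding gene. The other shared DHSs comprised 3765 in introns, 6271 in intergenic sequence and 15129 within 1 kb of a TSS, which are called promoter DHSs here.

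The libraries were DNase-seq of tissue from female B6CASTF1/J mice aged 4 days, an F1 hybrid of inbred strains, with no treatment. Replicate 1 and replicate 2 carry separate biological replicate numbers in the labels and a single strain-level donor record, so there was 1 group and no comparison between conditions. The stricter lists held 59355 calls in replicate 1 and 46566 in replicate 2, and sequencing depth was not stated. DHSs are not replicates of a condition, so shares carry exact 95% binomial intervals that cover counting error only, and no tests were run between sets of DHSs.

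Of 10 cortical neuron marker genes, 6 had a shared promoter DHS (among them Tbr1, Lhx2, Tubb3 and Syt1), and none was found at Neurod2, Neurod6, Bcl11b or Emx1. The same held for 2 of 4 astrocyte genes, 3 of 4 oligodendrocyte lineage genes, 1 of 3 endothelial genes, 0 of 4 microglial markers and 0 of 7 markers of other tissues. Of all protein-coding genes, 55.7% had a shared DHS within 1 kb of a TSS of their own. The neuron and astrocyte counts were thus near the share of any gene. In bulk tissue, fewer cells with an open site and less cutting per cell cannot be told apart.

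Exons carry the bases that are translated or that flank the reading frame in the mature message, and a regulatory protein bound there reads the same letters as the ribosome or the splicing machinery. Open chromatin in an exon can mark an enhancer, an alternative promoter, or a binding site of CTCF, the zinc-finger protein that anchors chromatin loops. CpG islands, stretches rich in unmethylated CpG dinucleotides, often extend from a promoter into the first exons and also occur inside genes, where they can be open without an annotated start.

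Matches to a 12-letter CTCF core consensus in the exonic sequence of these DHSs are shown first, because footprints covered nearly all of the matches there. The highest-ranked matches whose surroundings lay wholly in coding sequence, and those in untranslated regions (UTRs), follow as 30 bases of the mm10 genome (GRCm38), read along the strand of the consensus, with the consensus in capitals. Footprints, the short protected intervals that the authors called inside cut regions, covered every match shown in both libraries. The matches fell on the strand of the gene in Synpo2l, Crh, Dand5, Skap2 and Acbd4 and on the opposite strand in Hey1, Gpr153, Pgls, Ror2 and Slc4a3.
Synpo2l, coding sequence, chr14:20661153-20661182, minus strand: ttcatgcagCCACTAGGGGGCaggagttac
Crh, coding sequence, chr3:19694055-19694084, minus strand: cctcggtggCCACCAGGGGGCgctggagag
Hey1, coding sequence, chr3:8664683-8664712, plus strand: cccaagccgCCACTAGGGGGCgctcgcaag
Gpr153, coding sequence, chr4:152283370-152283399, minus strand: tgcgtacggCCACCAGGGGGCgttgggacc
Pgls, coding sequence, chr8:71596108-71596137, minus strand: gtccaggaaCCAGCAGAGGGCgcccgtgcg
Acbd4, 5' UTR, chr11:103102806-103102835, plus strand: cgtgggtttCCACCAGGGGGCgcgaggact
Dand5, 3' UTR, chr8:84815722-84815751, minus strand: cgcttttagCCACTAGGTGGCaccgcgtcc
Ror2, 3' UTR, first match, chr13:53109641-53109670, plus strand: ctttggactCCAGCAGATGGCagcatcgag
Ror2, 3' UTR, second match, chr13:53109743-53109772, plus strand: catcctccgCCAGCAGGGGGCtcacggagc
Slc4a3, 3' UTR, chr1:75559667-75559696, minus strand: caaaaaccaCCACCAGAGGGCtacacacgg
Skap2, 3' UTR, chr6:51858059-51858088, minus strand: cctaagtggCCAGCAGATGGCagcagcttg

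Whole DHSs from coding sequence, chosen after their values were seen, are printed as examples of where the protected bases sit inside an open exon. Those of Crh, the corticotropin-releasing hormone, Neurog2, a proneural transcription factor of cortical progenitors, and Hes1, a repressor downstream of Notch, lay entirely in coding sequence. They are printed along the coding strand, with capitals where footprints of both libraries cover the base. Capitals mark 57 of 220 bases in Crh, 36 of 240 in Neurog2 and 39 of 280 in Hes1. The DHSs lay 1.305, 1.126 and 1.821 kb from the nearest TSS of the annotation used, just past the limit. A more comprehensive transcript set has a TSS 0.823 kb from the Hes1 DHS and none nearer to the others.
Crh, chr3:19693981-19694200, minus strand: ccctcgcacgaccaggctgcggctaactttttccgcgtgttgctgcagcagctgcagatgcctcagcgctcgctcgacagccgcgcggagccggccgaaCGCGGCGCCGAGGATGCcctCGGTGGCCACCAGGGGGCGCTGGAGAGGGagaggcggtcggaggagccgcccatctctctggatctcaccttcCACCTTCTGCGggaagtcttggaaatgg
Neurog2, chr3:127634141-127634380, plus strand: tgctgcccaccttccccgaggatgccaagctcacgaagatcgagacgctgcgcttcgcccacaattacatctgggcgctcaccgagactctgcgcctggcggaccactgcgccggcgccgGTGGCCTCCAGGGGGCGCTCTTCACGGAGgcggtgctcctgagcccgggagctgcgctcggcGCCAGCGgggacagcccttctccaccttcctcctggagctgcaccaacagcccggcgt
Hes1, chr16:30067021-30067300, plus strand: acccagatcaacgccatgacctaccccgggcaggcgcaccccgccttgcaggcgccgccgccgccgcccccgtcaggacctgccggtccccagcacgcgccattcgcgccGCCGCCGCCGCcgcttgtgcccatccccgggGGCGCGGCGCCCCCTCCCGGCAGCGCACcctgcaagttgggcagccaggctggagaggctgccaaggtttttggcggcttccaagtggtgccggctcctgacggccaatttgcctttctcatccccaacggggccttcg

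Most exonic DHSs lay in coding sequence. By the base at the centre, 570 (67.3%, 95% interval 64.0 to 70.5) were in coding sequence, 30 (3.54%) in 5' UTRs and 247 (29.2%, 26.1 to 32.4) in 3' UTRs. Coding sequence made up 48.8% of the exonic bases more than 1 kb from a TSS, 5' UTRs 1.17% and 3' UTRs 50.02%. Per Mb of such sequence there were 18.9 DHSs in coding sequence (exact Poisson interval 17.4 to 20.6), 41.7 in 5' UTRs (28.2 to 59.6) and 8.01 in 3' UTRs (7.04 to 9.07), against 4.20 in introns (4.07 to 4.33) and 3.89 in intergenic sequence (3.80 to 3.99). These intervals did not overlap between any pair of the exon classes, nor between an exon class and introns or intergenic sequence. The sequences also differed in composition: the GC content was 51.1% in the coding sequence counted, 47.4% in 5' UTRs and 42.7% in 3' UTRs, against 42.3% in introns, and the part of composition in the densities was not tested.

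**Figure D1:**
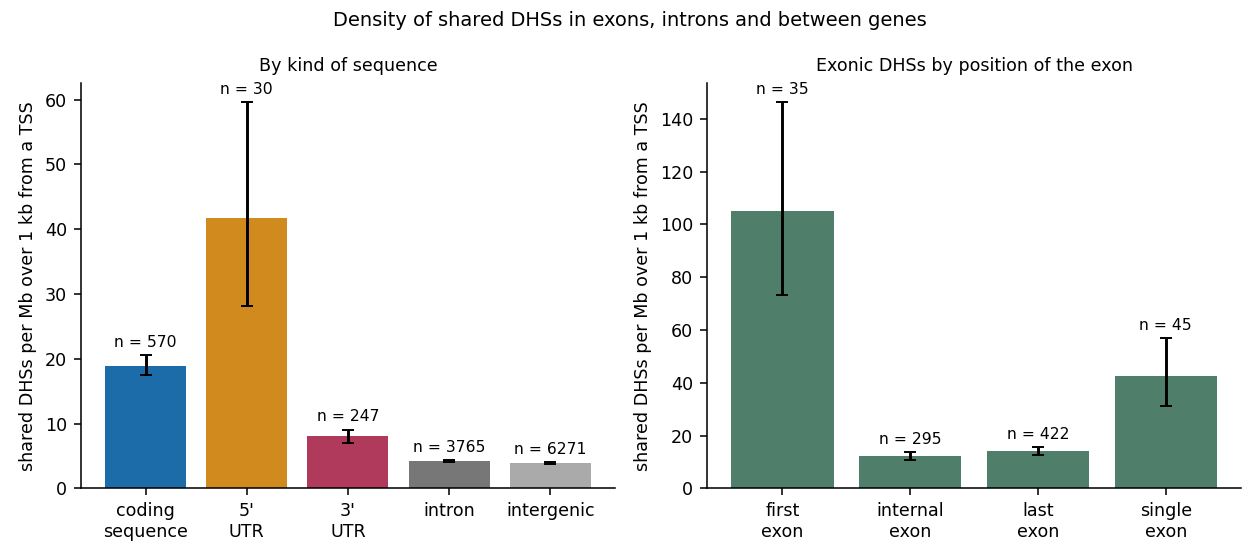
Shared DHSs per Mb of sequence more than 1 kb from a TSS, by kind of sequence at the left and, for exonic DHSs, by the position of the exon in its transcript at the right; error bars are exact 95% Poisson intervals and n is the number of DHSs. Coding sequence held 18.9 per Mb and 3' UTRs 8.01, against 4.20 in introns. First exons held 105 per Mb, with DHSs a median of 1.36 kb from a TSS.

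By exon position, counted in the overlapping transcript with the longest coding sequence, 35 exonic DHSs lay in first exons, 296 in internal exons, 474 in last exons and 42 in single-exon genes. Densities were taken over the transcript of each gene with the longest coding sequence, in which 35, 295, 422 and 45 could be placed. They were 105 per Mb in first exons (73.3 to 146), 12.2 in internal exons (10.9 to 13.7), 14.1 in last exons (12.8 to 15.5) and 42.5 in single-exon genes (31.03 to 56.9). First exons more than 1 kb from every TSS are rare and amount to 0.539% of the exonic bases counted, which is why so few DHSs gave the highest density. The DHSs in first exons and single-exon genes lay just past the limit, a median of 1.36 and 1.67 kb from a TSS. Those in internal and last exons lay a median of 6.74 and 6.69 kb away. The part of this distance in the densities was not tested. Internal exons were short, with a median length of 219 bp among those holding a DHS, and 221 of the 296 internal DHSs ran across a splice edge. Every base was exonic in 526 of the 847 DHSs. The base run with the lowest false discovery rate of the cut rate, a finer marker of position than the centre, lay in an exon at 803 DHSs in replicate 1, at 805 in replicate 2 and at 783 in both. The positions found in the 2 libraries were a median of 23 bp apart.

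Coding and 3' UTR DHSs differed in width and base composition. Coding DHSs had a median width of 325 bp (quartiles 211 and 500), against 200 bp (180 and 240) for 3' UTR DHSs. Their median GC content was 63.0% in coding sequence and 56.1% in 3' UTRs. The ratio of observed to expected CpG exceeded 0.6, a usual limit for CpG islands, at 347 coding DHSs (60.9%, 56.7 to 64.9) and at 42 of the 3' UTR DHSs (17.0%, 12.5 to 22.3). Promoter DHSs passed that limit in 83.3% of cases, intronic DHSs in 14.2% and intergenic DHSs in 22.5%. Coding DHSs thus lay between promoter and intronic DHSs in width and CpG content, while 3' UTR DHSs had the median width of intronic DHSs, 200 bp. All sequence more than 1 kb from a TSS had CpG ratios in the same order: 0.4025 in coding sequence, 0.223 in 3' UTRs and 0.187 in introns. The part of this background in the CpG content of the DHSs was not tested. Coding exceeded 3' UTR DHSs in the share above the CpG limit under each of the alternatives tried, including either library alone: 47.8% against 15.5% in replicate 2 and 37.2% against 10.8% in replicate 1. The difference in width was smaller in the calls of a single library, with medians of 203 and 180 bp in replicate 2 and of 201 and 180 bp in replicate 1.

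**Figure D2:**
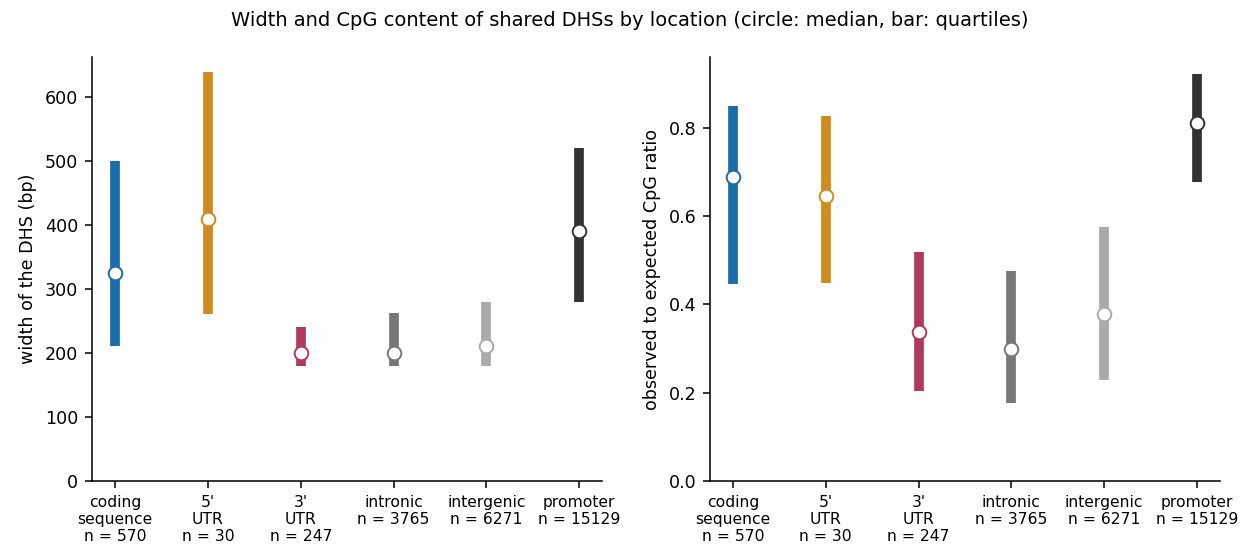
Width (left, in bp) and ratio of observed to expected CpG (right) of shared DHSs in coding sequence, 5' UTRs, 3' UTRs, introns, intergenic sequence and promoters; circles are medians and bars run between the quartiles. Coding DHSs had medians of 325 bp and 0.688, 3' UTR DHSs 200 bp and 0.337, intronic DHSs 200 bp and 0.299, and promoter DHSs 390 bp and 0.810.

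Within coding sequence, the CpG-rich DHSs were the wider ones. The 347 above the limit had a median width of 400 bp and lay a median of 3.40 kb from a TSS, against 220 bp and 7.38 kb for the 223 below it. Coding DHSs in last exons passed the CpG limit in 172 of 231 cases (74.5%, 68.3 to 80.0), against 128 of 283 (45.2%, 39.3 to 51.2) in internal exons. Repeated sequence was scarce throughout: more than 50% of the 31-base words recurred elsewhere in the assembled genome at 6 exonic DHSs (0.708%), against 1.25% of intronic, 3.33% of intergenic and 0.873% of promoter DHSs.

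The authors' signal value, given for each call on a scale that the files do not state, was used only to describe and rank DHSs within a library. Over the 847 it ran between 0.140 and 47.1 in replicate 1, with a median of 0.981, and between 0.150 and 34.0 in replicate 2, with a median of 1.80. Intronic DHSs had medians of 0.943 and 1.77, and promoter DHSs of 1.33 and 3.30. As a description over DHSs, which share their libraries, the log2 values of the replicates had a Pearson r of 0.90 and a Spearman rho of 0.895. Coding DHSs had medians of 0.920 and 1.71, and 3' UTR DHSs of 1.09 and 1.94. Within coding sequence the 347 CpG-rich DHSs had 1.02 and 1.95, against 0.775 and 1.36 for the 223 others.

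**Figure D3:**
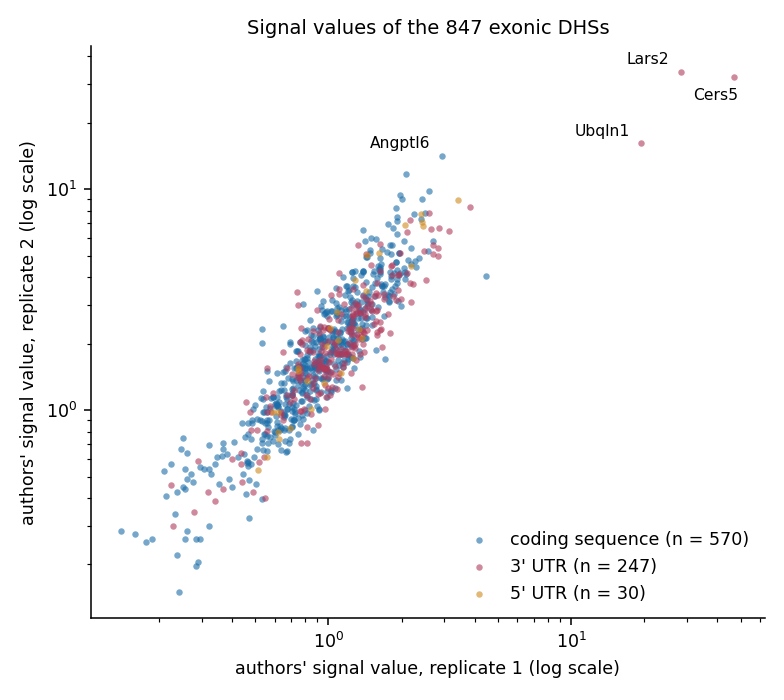
The authors' signal values of the 847 exonic DHSs in replicate 1 and replicate 2, on log axes, each point a DHS coloured by exon class. The 3' UTR DHSs of Cers5, Lars2 and Ubqln1 stand apart at the upper right, and the next highest value in replicate 2 is the coding DHS of Angptl6 at 14.2.

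The 3 highest DHSs all lay in 3' UTRs and stood apart from the rest. The last exon of Cers5, a ceramide synthase, reached 47.1 in replicate 1, with 32.4 in replicate 2. The last exon of Lars2, the mitochondrial leucyl-tRNA synthetase, held 28.4 and 34.0. The last exon of Ubqln1, a ubiquitin-binding shuttle to the proteasome, held 19.5 and 16.1. No other exonic DHS exceeded 4.47 in replicate 1. In Lars2, 60.5% of the 31-base words recurred in the genome, against 0% in Cers5 and Ubqln1. The Cers5 DHS held 0 footprints in replicate 1 and 3 in replicate 2, with none in common, and what these signals come from was not tested.

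Below these, the highest coding DHSs by mean rank were Angptl6, an angiopoietin-like secreted factor, with 2.93 and 14.2, Notch4, a Notch receptor, with 2.61 and 9.79, and Clec11a, a secreted lectin, with 2.44 and 9.004. They were wide: Angptl6 spanned 440 bp with 5 common footprints, Notch4 500 bp with 8 and Clec11a 620 bp with 2. Their CpG ratios were 0.988, 0.826 and 0.775. Acbd4, which encodes an acyl-CoA-binding protein, led the 5' UTR class with 3.42 and 8.89, ahead of the small GTPase gene Rap2b with 2.40 and 7.76. Angptl6 was 1.37 kb, Notch4 2.32 kb, Clec11a 1.95 kb and Acbd4 1.16 kb from the nearest TSS of the annotation used.

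The lowest values belonged to coding DHSs of other genes. B4galt5, a galactosyltransferase gene, had 0.178 and 0.252, Lrrc27 0.187 and 0.260, the small GTPase gene Rrad 0.159 and 0.276, the gamma-tubulin complex gene Tubgcp2 0.140 and 0.284, and the scaffold gene Pdzk1 0.243 and 0.150. None of the 5 held a footprint common to both libraries.

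Footprints common to both libraries, overlapping by 1 bp or more, were present in 668 exonic DHSs (78.9%, 76.0 to 81.6), against 85.1% of intronic, 85.9% of intergenic and 80.5% of promoter DHSs. They were present in 428 coding DHSs (75.1%, 71.3 to 78.6) and in 218 of the 3' UTR DHSs (88.3%, 83.6 to 92.0). The share followed the signal: it was 47.2% among the weakest exonic DHSs by mean rank (212 DHSs), 81.2% and 91.0% in the next bands and 96.2% in the highest (212 DHSs). Of the lowest 212, 20 held no footprint in either library, against 0 of the highest. Among all exonic calls of a single library, shared or not, the share with a common footprint was 39.6% of 2200 in replicate 2 and 27.0% of 2642 in replicate 1.

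Beyond 1 kb, exonic DHSs lay closer to a TSS than intronic or intergenic ones. Within 5 kb of a TSS were 390 (46.0%, 42.7 to 49.5), against 27.8% of intronic and 20.6% of intergenic DHSs. The median distance was 5.73 kb for exonic, 13.7 kb for intronic and 17.0 kb for intergenic DHSs, and was 4.61 kb for coding and 9.29 kb for 3' UTR DHSs. The distances of all exonic bases were not counted, so the part of exon placement in these values was not tested. CpG content was lower farther away: the median ratio over exonic DHSs was 0.778 at 1 to 2 kb, 0.644 at 2 to 5 kb, 0.464 at 5 to 20 kb and 0.436 at 20 to 100 kb. At the same distances intronic DHSs had 0.509, 0.345, 0.264 and 0.269, each lower than the exonic value. The sequence itself differed in that direction, with a ratio of 0.330 over all exonic bases beyond 1 kb and 0.187 over intronic ones.

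The limit of 1 kb cut through a continuous series. Just inside it were coding DHSs of Etv2, Hcrt and Gp5, at 1002, 1007 and 1008 bp, with signal values of 0.729 and 0.961, 2.27 and 4.73, and 0.677 and 0.654. Just outside it were those of Cdk13, Dach1 and Slitrk1, at 1000, 997 and 997 bp, with 0.859 and 1.88, 0.701 and 0.906, and 0.551 and 0.662. The annotation also mattered. The starts used were those of the basic transcript set, and 147 of the 847 lay within 1 kb of a start in the comprehensive set, among them Notch4 at 0.450 kb and Acbd4 at 0.170 kb. Angptl6 and Clec11a had no nearer start in that set. The 147 and the other 700 had median CpG ratios of 0.667 and 0.557.

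Farther than 20 kb from a TSS lay 139 exonic DHSs up to 100 kb and 8 beyond that. The highest of them included the 3' UTR of Ror2, a receptor tyrosine kinase for Wnt5a, at 80.8 kb with 2.59 and 7.80, and the 3' UTR of Skap2, an adaptor of Src-family kinases, at 147 kb with 2.16 and 7.23. The 3' UTR of the sterol-response regulator Srebf1, at 20.8 kb, had 2.83 and 5.44, and exon 8 of the myosin gene Myo3b, at 30.7 kb, had 2.19 and 5.42. To the nearest start of the comprehensive set the distances were 80.8 kb for Ror2, 13.9 kb for Skap2, 1.21 kb for Srebf1 and 30.7 kb for Myo3b. The DHSs of Ror2 and Skap2 held the CTCF consensus, and those of Srebf1 and Myo3b did not. The nearest TSS belonged to the host gene itself at 491 of the 847.

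CTCF matches were the commonest of the 19 consensus sequences searched on both strands in the central 150 bp. They were present in 103 exonic DHSs (12.2%, 10.04 to 14.6), against 20.2% of intronic (18.9 to 21.5), 18.2% of intergenic (17.2 to 19.2) and 1.32% of promoter DHSs. Flanking windows of the same length 1 kb to either side, outside any call, held the consensus in 2 of 1287 cases (0.155%). These windows leave out called sites by design and were not matched for base composition or kind of sequence. By exon class the consensus was present in 42 of 570 DHSs in coding sequence (7.37%, 5.36 to 9.83) and 58 of 247 in 3' UTRs (23.5%, 18.3 to 29.3), with intervals that did not overlap. The share depended on which calls were taken, since exonic calls of replicate 2 alone held it in 6.50% and those of replicate 1 alone in 4.28%. The order of the classes held in each library, with 3.98% in coding sequence and 13.0% in 3' UTRs in replicate 2, and 2.69% and 6.93% in replicate 1.

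Counted from the genome, the picture per match was different. More than 1 kb from a TSS there were 250 CTCF matches in coding sequence, of which 41 lay in a shared DHS (16.4%, 12.03 to 21.6). In 3' UTRs 63 of 254 did (24.8%, 19.6 to 30.6), and in 5' UTRs 3 of 6. Introns had 804 of 4938 (16.3%, 15.3 to 17.3) and intergenic sequence 1222 of 6943 (17.6%, 16.7 to 18.5). The interval for coding sequence included the shares of introns and intergenic sequence, and the interval for 3' UTRs lay above those of introns and intergenic sequence. Per library, 17.2% of the coding matches lay in a call of replicate 1 and 22.8% in a call of replicate 2, against 17.4% and 22.0% of the intronic ones.

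**Figure D4:**
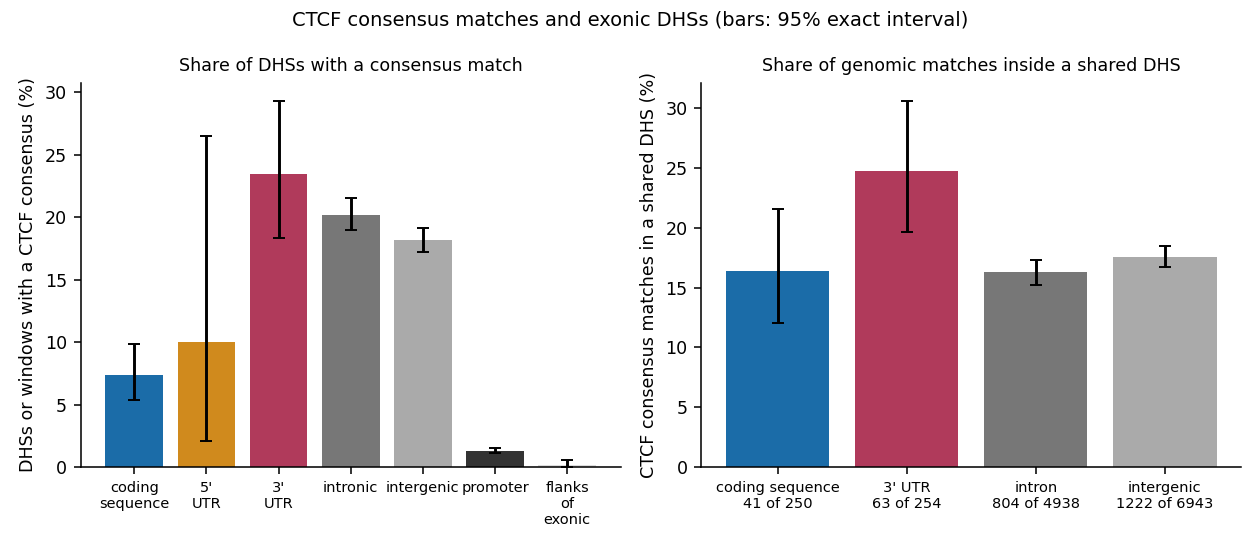
Left, the percentage of shared DHSs with a CTCF consensus in the central 150 bp, by location, and of windows 1 kb beside exonic DHSs (flanks); right, the percentage of CTCF consensus matches more than 1 kb from a TSS that lie in a shared DHS, with counts under the bars. Error bars are exact 95% binomial intervals; coding sequence has 7.37% at the left and 16.4% at the right, and 3' UTRs 23.5% and 24.8%.

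The exonic DHSs with a CTCF match were narrow and far from starts. Their median width was 200 bp, against 292 bp without a match, and 2 of 103 were 400 bp or wider, against 267 of 744. They lay a median of 11.9 kb from a TSS, against 5.34 kb, and had median signal values of 1.25 and 2.30, against 0.934 and 1.73. A footprint common to both libraries was present in 98.1% of them, against 76.2%. The share with a match was higher farther from the TSS, being 3.37% at 1 to 2 kb, 10.9% at 2 to 5 kb, 14.8% at 5 to 20 kb and 17.99% at 20 to 100 kb, against 6.68%, 15.9%, 24.2% and 24.2% of intronic DHSs.

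In 104 exonic DHSs there were 105 matches whose own centre lay in an exon more than 1 kb from a TSS. Footprints covered nearly all of these matches. Matches elsewhere in the DHSs were left out of this count. With the whole DHS read, 13.2% of the 847 held a match. A footprint overlapped 102 of the 105 (97.1%) in replicate 1, 104 (99.05%) in replicate 2 and 101 (96.2%, 90.5 to 98.9) in both. Of the 39 matches in coding sequence, 36 had one in both libraries (92.3%, 79.1 to 98.4), and 62 of 63 did in 3' UTRs (98.4%). The covered stretch was not symmetric: at 20 bp before the centre of the match along its strand a further footprint covered 31.4% of sites in replicate 1 and 56.2% in replicate 2, while at 20 bp after it 15.2% and 17.1% were covered. The consensus lay on the strand of the gene at 48 of the 105.

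**Figure D5:**
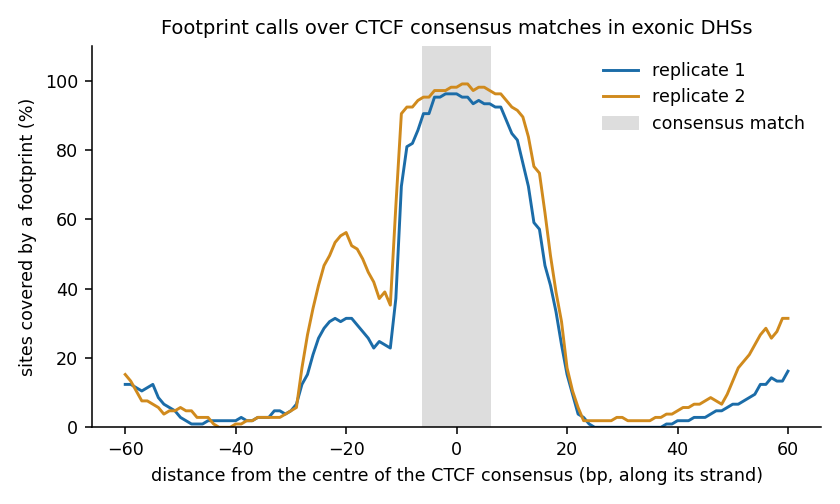
Percentage of the 105 CTCF consensus matches in exonic sequence of exonic DHSs covered by a footprint at each distance (bp) from the centre of the match, oriented along the consensus, in replicate 1 and replicate 2. Coverage at the centre was 96.2% and 98.1%, with a further rise at 20 bp before it, to 31.4% and 56.2%.

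The members behind these counts spanned many kinds of genes. In coding sequence, Synpo2l, an actin-associated protein of muscle, had 1.96 in replicate 1 and 5.13 in replicate 2, Hip1r, which links clathrin to actin, 2.06 and 4.21, and Crh 2.06 and 3.92. Hey1, a repressor induced by Notch, had 1.91 and 3.78, and the orphan receptor gene Gpr153 1.82 and 3.92. In 3' UTRs the values were higher: Dand5, an antagonist of Nodal and BMP ligands, had 3.82 and 8.33 and the anion exchanger gene Slc4a3 had 2.65 and 6.64. The Ror2 DHS held both of the matches printed above.

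Other consensus sequences were rare. The EGR consensus (GCGTGGGCG or GCGGGGGCG), read by immediate-early zinc-finger factors, was present in 18 exonic DHSs (2.13%, 1.26 to 3.34), against 0.797% of intronic (0.538 to 1.14), 0.765% of intergenic and 4.05% of promoter DHSs. Of the 18 DHSs, 16 were among the 570 coding ones. The E-box CAGATGG, bound by NEUROD factors in neurons, was present in 40 (4.72%, 3.40 to 6.38), against 6.40% of intronic, 6.94% of intergenic and 1.68% of promoter DHSs, and 3.81% of flanking windows. The AP-1 consensus (TGACTCA or TGAGTCA) was present in 12 exonic DHSs (1.42%), under the 2.72% of flanking windows, and in 2.18% of intronic DHSs. The cyclic-AMP response element TGACGTCA was present in 3 exonic and 1.82% of promoter DHSs. No match says only that these letters were not in the window.

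The 847 DHSs lay in 744 genes, 82 of which held 2 or more and 16 held 3 or more. Of these genes 494 had a shared DHS reaching within 1 kb of a TSS of their own (66.4%, 62.9 to 69.8), against 55.7% of all protein-coding genes. Any overlap counted here, so an exonic DHS centred just past 1 kb, such as that of Hcrt, could itself supply it. The share of the host genes is thus raised in part by how they were chosen, and by how much was not tested. Counting every overlapping gene, 757 symbols held an exonic DHS, or 3.45% of protein-coding genes. That share is the background for the gene lists that follow, which differ in the exonic length they offer.

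Genes with several exonic DHSs often had weak ones. The 53 DHSs in genes with 3 or more had medians of the signal of 0.560 in replicate 1, with 0.890 in replicate 2, against 0.992 and 1.86 for the other 794, and 28 of them (52.8%, 38.6 to 66.7) held a common footprint, against 80.6%. Of the 212 weakest exonic DHSs by mean rank, 9 held the CTCF consensus (4.2%), and none of the 53 did. The exact interval for the 53 allows a share of up to 6.72%. It takes the DHSs as independent although they came from 16 genes, so it may be too narrow. B4galt5 had the most, 5 DHSs between 0.178 and 0.574 in replicate 1 and between 0.252 and 1.05 in replicate 2. Bcl9l, a coactivator of Wnt signalling, had 4 coding DHSs between 0.364 and 0.439 in replicate 1 and between 0.622 and 0.874 in replicate 2. The 4 of Tchh, which encodes the hair follicle protein trichohyalin, lay in a single coding exon of 5685 bp and had 0.532 to 1.01 and 0.709 to 1.48. Mid1, a ubiquitin ligase gene on the X chromosome, also had 4, with 1.03 to 3.15 and 1.49 to 6.48, but between 91.1% and 100% of their 31-base words recurred in the genome.

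Genes of Notch and Wnt signalling were among the lists with the larger shares. Of 32 such genes 7 held an exonic DHS (21.9%), against 3.45% of all genes, and all 8 of their DHSs were in coding sequence. Besides Hey1, they were in Hes1 with 1.70 in replicate 1 and 3.63 in replicate 2, in the receptor genes Fzd8, with 1.91 and 3.94, and Fzd7, with 0.785 and 3.01, in Notch3, a Notch receptor, with 1.13 and 2.53, and in Fzd1 and the ligand gene Dll3. Their eligible exonic sequence amounted to 141 kb, giving 56.9 DHSs per Mb, against 13.6 over all genes. With 32 genes such counts are small, and no test was made.

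Regulators of cortical projection neurons held one at 4 of 25 genes (16.0%, 4.5 to 36.1), against 3.45% of all genes. Neurog2 had 1.38 and 2.46, Pou3f3, a POU-domain factor of upper layers, 1.22 and 1.99 at the higher of its pair, and Tbr1, a T-box factor of deep layers, 1.02 and 1.21 at the higher of its pair, while Fezf2, which specifies corticofugal neurons, had 0.766 and 0.867. All 6 of the DHSs in this list were in coding sequence, at 54 per Mb, against 13.6 over all genes. Activity-regulated genes had 4 of 24 (16.7%, 4.7 to 37.4) at 77.7 per Mb, a density that rested on 5 DHSs. The AP-1 subunit gene Jun had 0.920 and 2.13 at the higher of its pair, and Klf4, a zinc-finger regulator, 0.957 and 1.71. The pentraxin gene Nptx2 had 0.663 and 1.06 and Egr4, an immediate-early zinc-finger gene, 0.654 and 0.961. The DHSs given for Neurog2, Jun and Klf4 lay 1.126, 1.559 and 2.125 kb from a TSS. That of Jun lay 0.871 kb from one of the comprehensive set. No exonic DHS was found in Fos, Mef2c, Bdnf, Neurod2 or Cx3cr1.

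Ion channel genes had 5 of 24 (20.8%), led by Cacna1a, a calcium channel of presynaptic terminals, whose last exon had 1.85 and 6.66, and Scn8a, a neuronal sodium channel, with 1.26 and 1.73. Cacna1a lay 22.3 kb from a basic TSS and 0.510 kb from one of the comprehensive set. Axon guidance genes had 5 of 34 (14.7%): the ephrin receptor gene Ephb2 had 1.85 and 3.29 in its 3' UTR and the semaphorin co-receptor gene Nrp2 had 1.41 and 2.13 in coding sequence. Synaptic genes had 2 of 33 (6.06%), Unc13a, which primes vesicles for release, with 2.06 and 5.83, and the postsynaptic scaffold gene Shank1, whose 3 DHSs reached 1.57 and 5.94. Cytoskeletal and growth genes had 2 of 29 (6.90%), one of them the neurofilament gene Nefm with 0.915 and 2.18. Per Mb of eligible exonic sequence the ion channel list held 24.5 DHSs, the axon guidance list 26.2, the synaptic list 16.4 and the cytoskeletal list 10.8, against 13.6 over all genes. The cytoskeletal list was below all genes by length and above them by share of genes, but it rested on 2 DHSs. The exact interval of its share, 0.846% to 22.8%, included the 3.45% of all genes.

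Among lists of other cell types, the glial and microglial ones held 2 genes each, and the endothelial, mural and matrix list held 0 of 26. Radial glia and astrocyte genes had 2 of 22 (9.09%), Hes1 and Sox9, at 26.1 DHSs per Mb. Oligodendrocyte lineage genes had 2 of 17 (11.8%), Nkx2-2 and Sox8, at 28.2 per Mb. Microglial and blood genes had 2 of 19 (10.5%) at 55.8 per Mb, the blood regulators Spi1 with 0.957 and 2.72 and Tal1 with 0.981 and 1.51, although no microglial marker had a shared promoter DHS. The shares and densities of the glial and microglial lists were above those of all genes, 3.45% and 13.6 per Mb, but each list rested on 2 DHSs. The exact intervals of the shares were 1.12% to 29.2%, 1.46% to 36.4% and 1.30% to 33.1%, in the order given. Each included the 3.45% of all genes and overlapped the intervals of the synaptic and cytoskeletal lists, so these lists could not be ranked. Chromatin regulators had 1 of 36 (2.78%) at 3.28 per Mb, the histone methyltransferase gene Kmt2a with 0.934 and 2.04. Imprinted genes had 2 of 24 (8.33%) at 29.7 per Mb, Ndn with 0.897 and 3.45 and Dlk1, whose pair of 3' UTR DHSs had 0.224 and 0.457, and 0.229 and 0.299.

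No exonic DHS was found in 25 housekeeping, 39 Hox, 44 collagen, 51 clustered protocadherin, 26 endothelial, mural and matrix, or 1092 olfactory receptor genes. The olfactory receptor genes offered 2094 kb of eligible exonic sequence and the housekeeping genes 51.8 kb, so the counts of 0 differ in weight. The exact interval allows a share of up to 0.337% of olfactory receptor genes and up to 13.7% of housekeeping genes. For the Hox, collagen, protocadherin and endothelial lists the limits were 9.03%, 8.04%, 6.98% and 13.2%. Of these lists, only the olfactory receptor genes had a limit under the 3.45% of all genes. Genes named Zfp held one at 10 of 391 (2.56%) and 8.999 DHSs per Mb, with 12 of their 13 DHSs in coding sequence, led by Zfp771 with 2.24 and 7.74. Solute carrier genes held one at 14 of 334 (4.19%) and 12.85 per Mb, split evenly into 7 coding and 7 3' UTR DHSs.

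Outside chromosome Y, the share of shared DHSs that were exonic varied between 1.28% on chromosome X, with 9, and 5.03% on chromosome 3, with 62. Chromosome Y held 24 shared DHSs, 0 of them exonic, although both libraries are labelled female, and the source of those calls was not tested. Within 1 kb of another shared DHS lay 252 of the 847 (29.8%), against 18.3% of intronic, 17.8% of intergenic and 39.6% of promoter DHSs. For 67 of the 252 the nearest was a promoter DHS.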

How the data were processed

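DNase-seq of 2 libraries was analysed from deposited files in mm10 coordinates, made per library with no pooling, per the deposited file listings. Each peak list gives the authors' signal value per call, on a scale that is not stated. The authors' false discovery rates (q-values) of the cut rate are deposited for runs of bases under 0.05, and the deposited footprint lists carry 0.01 on every line, taken as a threshold. The sources used here do not name the aligner or caller or give the depth. Of each library's 2 peak lists the stricter was used. DHSs were placed with the GENCODE M21 basic annotation; where transcripts disagree a base was taken as coding, then 5' UTR, then 3' UTR. Sequence came from RefSeq's GRCm38 assembly. Consensus matches, base composition, 31-base words and footprints were computed with Python 3.11.15, NumPy 2.4.6, pandas 2.3.3, SciPy 1.17.1, numba 0.67.0 and pyfaidx 0.9.0.4, and the merging, placing and matching steps were tested on simulated data. Intervals are exact 95% Clopper-Pearson or Poisson intervals. There is 1 group, so no test between groups was possible.

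The DHS set, gene lists, consensus sequences and alternatives were chosen with earlier results of these data known. Named genes were, by mean rank of both signal values, the 10 highest and 5 lowest, the 3 highest per exon class and exon position, the 2 highest per gene list, the 5 highest with CTCF in coding sequence or beyond 20 kb, the 10 genes with most members and 5 fixed genes; the text gives a selection, and some genes are not reported here. Pgls, the further list genes and the 3 whole DHSs printed were chosen after their values were seen.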

Additional observations from a re-analysis of the deposited data

How the results depend on the processing

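No result reversed, since none carried a sign. With each library left out in turn, the number of exonic DHSs was 2200 to 2642, the coding share 62.0% to 69.7%, the 3' UTR share 27.6% to 36.0%, the CTCF share 4.28% to 6.50%, the common footprint share 27.0% to 39.6%, the median GC content 55.7% to 60.2% and the share within 5 kb 35.1% to 47.0%; these counts include calls that the other library lacks. Lenient lists gave 1801 DHSs, a CTCF share of 8.05%, a footprint share of 58.9% and a GC content of 59.2%. The stronger 50% of calls gave 552 DHSs, 63.0% coding, 33.2% in 3' UTRs, 15.6% with CTCF, 91.3% with a footprint and 61.3% GC. Calls overlapping by 50% or more of each gave 62.9%, 33.3%, 15.8%, 85.3% and 59.5%, with 42.5% within 5 kb. A limit of 0.5 kb gave 21.4% in 3' UTRs, 8.57% with CTCF, 71.0% with a footprint, 62.6% GC and 63.4% within 5 kb, and a limit of 2.5 kb gave 62.4% coding, 36.2%, 15.0%, 84.0%, 58.9% and 26.2%. Taking DHSs with at least 50% exonic bases gave 63.8% coding, and footprints overlapping by 50% or more of each 65.8%. The comprehensive annotation, chosen after seeing the data, gave 57.0% coding, 58.9% GC and 61.1% within 5 kb. The cause of these shifts was not tested. TSSs of all biotypes, the whole DHS for the consensus and, both chosen after seeing the data, leaving out repeated sequence or the DHSs of Cers5, Lars2 and Ubqln1 kept each result they bore on inside its interval. Sequencing depth is unknown, so weak sites missed in a library cannot be counted, and the signal scale limits comparison of values to within a library.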

Other observations

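The reading frame of the CTCF matches in coding sequence was looked at after the other values were seen. Among the 240 matches more than 1 kb from a TSS that lay whole in a coding exon, 39 were in a shared DHS. The offset was counted from the first base of a codon to the base of the match nearest the start of the gene. On the coding strand a shared DHS held 14 of the 53 matches at offset 2 (26.4%, exact interval 15.3 to 40.3), 4 of 13 at offset 1 and 2 of 28 at offset 0 (7.14%, 0.877 to 23.5). On the opposite strand it held 5 of 36 at offset 2, 11 of 75 at offset 1 and 3 of 35 at offset 0. The intervals overlap and no test was made.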
